A study of Mus musculus with 8 samples.

Results

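The genes described here encode the machinery that carries a signal from G protein-coupled receptors to cyclic nucleotides: regulators of G protein signalling (RGS), G protein subunits, adenylyl cyclases and phosphodiesterases. They were chosen by name pattern (Rgs, Gna, Gnb, Gng, Adcy and Pde symbols), which gave 69 genes of the 15705 listed, after 6 striatal or vascular genes that the same patterns match (Rgs5, Rgs9, Gng7, Adcy5, Pde10a and Pde1b) were left out. Poly(A) RNA was sequenced from E18.5 mouse lateral ganglionic eminence (LGE), the tissue in which striatal projection neurons arise. There were 4 conditional knockout (cKO) libraries, from embryos of genotype Dlx1-Cre; Isl1 flx/flx, and 4 control libraries, from Isl1 flx/flx embryos without the recombinase. All embryos thus carried floxed Isl1, the presence of Cre and the loss of Isl1 cannot be told apart, and Isl1 (a LIM-homeodomain transcription factor) is deleted only in cells where Dlx1-Cre is or was active. The labels describe littermates but give no litter, so p-values measure the spread between these libraries.

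An active receptor makes a G protein exchange its nucleotide, after which the alpha subunit and the beta-gamma dimer act on effectors. Gs-class alpha subunits stimulate adenylyl cyclases, Gi/o-class subunits inhibit most of them, and Gq-class subunits act on phospholipase C. RGS proteins end the signal by speeding GTP hydrolysis on alpha subunits, chiefly of the Gi/o and Gq classes, and phosphodiesterases degrade the cAMP or cGMP that cyclases make. In striatal projection neurons this chain couples dopamine, adenosine, opioid and muscarinic receptors to protein kinase A.

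In the cKO LGE, 12 of the 69 genes fell and 4 rose, which is 23.2% of them, against 6.66% of all 15698 genes tested (limma, Benjamini-Hochberg adjusted p under 0.05). Falls were 3.78% and rises 2.87% of all genes tested. The largest changes among genes with a mean of at least 1 RPKM (reads scaled to gene length and library total) were falls of the RGS genes Rgs4 and Rgs6 and of the cAMP phosphodiesterase gene Pde7b. Rises came from the inhibitory alpha subunit gene Gnai1, the cAMP phosphodiesterase gene Pde8b, the cyclase gene Adcy8 and the RGS gene Rgs8. The most abundant listed G protein subunit gene of each class did not pass the test. Outside the selection, the subunit genes Gnal and Gng7 fell. The median log2 fold change was -0.02 over the 69 genes and 0.01 over all genes tested, and the median absolute log2 fold change was 0.15 and 0.08. The list reached higher levels than the typical gene (median of the gene means 10.7 RPKM, against 7.83 RPKM over all genes tested). Of the 54 listed genes with a mean of at least 1 RPKM, 14 passed, against 6.88% of all genes at that level.

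Isl1 itself was at 80.6, 87.9, 91.9 and 96.7 RPKM in the cKO libraries, against 63.0, 59.9, 68.0 and 57.9 RPKM in the controls (log2 fold change 0.53 ± 0.06 SE, adjusted p = 0.000338). The sources used here do not say which part of the gene is deleted, so this level does not check the genotype labels, and cKO and control below mean the libraries so labelled. All 12 striatal projection neuron markers were detected in every library, and 6 of them changed. The neuropeptide gene Tac1 was at 9.01 ± 1.99 RPKM in the cKO and 68.2 ± 5.28 RPKM in the controls (SD, n = 4 each; log2 fold change -2.93 ± 0.13), and Ppp1r1b fell as well (-0.74 ± 0.11). Isl1, Meis2, Adora2a and Drd2 rose. The rise of Drd2 (0.20 ± 0.05, adjusted p = 0.0367) passed in only 2 of 8 fits with 1 library dropped. In the authors' deposited table Drd2 did not pass (adjusted p = 0.122). The summed level of the 12 was 815 to 844 RPKM in the cKO and 811 to 838 RPKM in the controls, but their mean log2 value was lower in every cKO library (11.73 to 11.84) than in any control (11.97 to 11.98). That mean includes the large fall of Tac1 and does not describe the 12 as a group. Of the 12, 8 had a log2 fold change above 0 and 4 below, with a median of 0.04. Markers of other cell groups moved too (6.66% of all genes tested passed). Of 12 microglial markers 11 rose (summed level 91.7 to 113 RPKM in the cKO, 58.7 to 66.7 RPKM in the controls). Among 7 ventral interneuron markers 3 fell (91.7 to 133 RPKM in the cKO, 141 to 177 RPKM in the controls). These were Npy, Slc18a3 and the scarce Chat (mean 0.02 RPKM in the cKO, 0.21 RPKM in the controls). Lhx6, Sst and Lhx8 were lower but did not pass, and Nkx2-1 was higher without passing (log2 fold change 0.17). The erythroid markers Hbb-bt and Hba-a1, 2 of 5, rose (171 to 213 RPKM in the cKO, 118 to 168 RPKM in the controls). Hba-a1 had overlapping groups and passed in only 3 of 8 fits with 1 library dropped. Of 11 pallial neuron markers 1 rose (7.99 to 23.0 RPKM in the cKO, 2.26 to 22.2 RPKM in the controls), and they were lowest in cKO replicate 4 and control replicate 3. No marker of these lists was at 0, except the interneuron marker Chat in cKO replicate 1. Of 8 LGE progenitor markers 2 rose (450 to 471 RPKM in the cKO, 347 to 391 RPKM in the controls), and none of 11 vascular, 7 astroglial and 5 oligodendrocyte lineage markers passed. The part of these cell groups in the results was not tested, and in bulk tissue fewer cells of a type and less RNA per cell cannot be told apart.

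The sequences upstream of the 3 genes with the smallest p among the falls and of Gnai1, the rise with the smallest p, are shown because these members carry the main differences. In the GENCODE M21 annotation (GRCm38) the genes span chr1:169741477-169747642 (Rgs4), chr10:20398004-20725078 (Pde7b), chr12:82588292-83162056 (Rgs6) and chr5:18265135-18360355 (Gnai1). Each is the 250 bases before the transcription start that RefSeq annotates (build GRCm38.p6), 5′ to 3′ on the gene's strand, and 53 of the 69 genes, 13 of the 16 that passed, have an entry. The positions are chr1:169747643-169747892 (minus strand) for Rgs4, chr10:20548329-20548578 (minus strand) for Pde7b, chr12:82617249-82617498 (plus strand) for Rgs6 and chr5:18360414-18360663 (minus strand) for Gnai1. The annotated starts of Pde7b and Rgs6 lie inside the GENCODE spans. That of Gnai1 lies upstream of its span, and the bases checked after it were in no GENCODE transcript of Gnai1. Capitals mark matches, on either strand, to CTAATG (a motif of ISL1), TAATTA (a motif of many homeodomain factors), TGACGTCA (the cAMP response element) or TGACG (its core, which TGACGTCA contains).
Rgs4 promoter: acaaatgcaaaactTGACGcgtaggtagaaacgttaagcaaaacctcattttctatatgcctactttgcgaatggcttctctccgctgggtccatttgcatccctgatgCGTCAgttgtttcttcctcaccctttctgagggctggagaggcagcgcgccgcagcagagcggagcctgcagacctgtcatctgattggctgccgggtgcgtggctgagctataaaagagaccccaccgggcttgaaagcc
Pde7b promoter: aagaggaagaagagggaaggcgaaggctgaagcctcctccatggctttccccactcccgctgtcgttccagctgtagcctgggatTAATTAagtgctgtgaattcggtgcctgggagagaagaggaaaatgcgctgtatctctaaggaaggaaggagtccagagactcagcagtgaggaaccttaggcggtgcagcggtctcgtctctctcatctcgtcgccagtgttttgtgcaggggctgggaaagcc
Rgs6 promoter: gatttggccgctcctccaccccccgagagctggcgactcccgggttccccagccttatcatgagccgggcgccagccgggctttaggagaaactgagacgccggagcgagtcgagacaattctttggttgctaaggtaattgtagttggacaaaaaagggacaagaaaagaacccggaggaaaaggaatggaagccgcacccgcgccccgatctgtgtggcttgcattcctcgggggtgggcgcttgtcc
Gnai1 promoter: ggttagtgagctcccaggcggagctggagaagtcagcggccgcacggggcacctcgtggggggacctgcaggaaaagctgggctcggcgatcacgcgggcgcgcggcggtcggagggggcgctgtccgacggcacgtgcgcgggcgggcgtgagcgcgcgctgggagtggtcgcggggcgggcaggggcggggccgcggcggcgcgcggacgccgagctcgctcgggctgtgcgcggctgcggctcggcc
The Rgs4 window held TGACG in 2 places, a motif found in 25.0% of the 15191 windows of tested genes. The Pde7b window held TAATTA, found in 2.66% of windows. The Rgs6 and Gnai1 windows held none of the 4 motifs. The 13 genes have 24 windows together, since a gene can have several annotated starts. CTAATG (4.29% of windows) was in 2 of these 24 windows, from Gng4 and Rgs8, and TGACGTCA (2.49% of windows) in none. A match describes the letters of this window only.

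**Figure D1:**
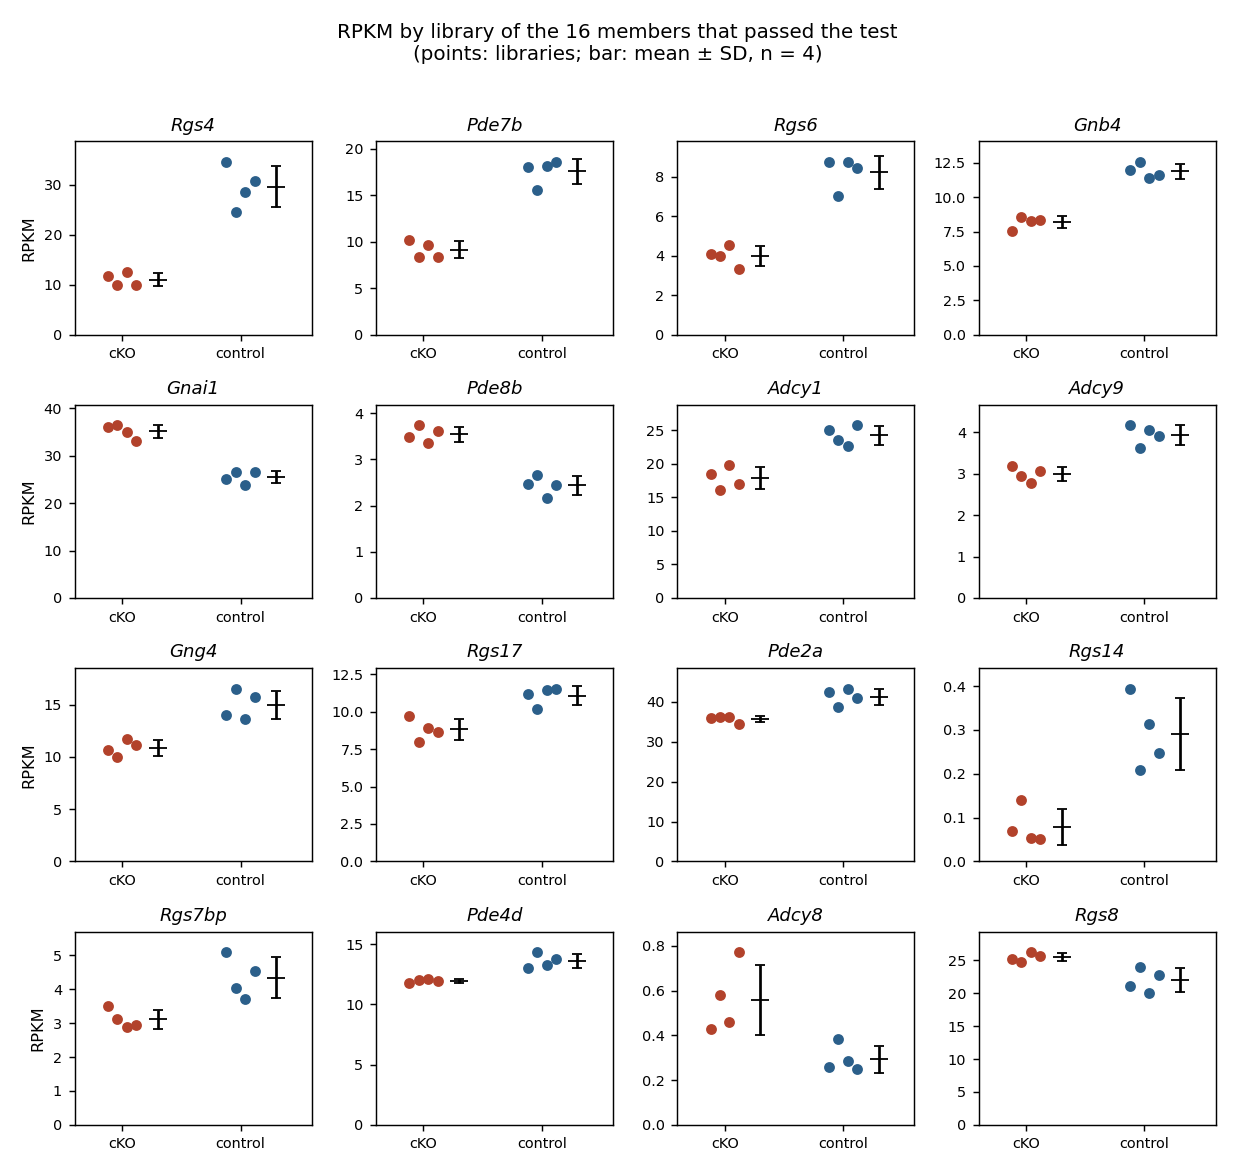
RPKM of the 16 genes that passed the test, in the 4 cKO (left) and 4 control (right) libraries of each panel, with the mean and SD beside the points and each axis starting at 0. The groups do not overlap in any panel, and the separation is widest relative to the level for Rgs14, Rgs4 and Rgs6.

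RGS genes gave the largest falls. Of 18 Rgs-named genes 5 fell and 1 rose (33.3%, against 6.66% of all genes tested). Their summed level was between 177 and 194 RPKM in the cKO, against 207 to 210 RPKM in the controls. Rgs4, of the R4 subfamily of small RGS proteins that act on Gi/o and Gq alpha subunits, was at 11.8, 9.93, 12.5 and 9.84 RPKM in the cKO libraries, against 34.6, 24.6, 28.6 and 30.7 RPKM in the controls. Every cKO value lay far below the lowest control, and the log2 fold change was -1.42 ± 0.10 (SE, adjusted p = 4.62e-06). Its share of the summed level of the 18 genes was 5.89% ± 0.80 in the cKO and 14.2% ± 1.95 in the controls (SD, n = 4 each).

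No other R4 gene passed the test as a fall. Rgs8, known from cerebellar Purkinje cells and striatum, was at 25.2, 24.7, 26.2 and 25.7 RPKM in the cKO libraries and at 21.1, 24.0, 20.01 and 22.8 RPKM in the controls. The gap between the groups was narrow, and the rise (log2 fold change 0.22 ± 0.05 SE, adjusted p = 0.0313) missed the threshold when any single library other than cKO replicate 1 or control replicate 2 was dropped (6 of 8 cases), with adjusted p up to 0.0917, and in the authors' deposited table (adjusted p = 0.0880). Rgs16, whose gene starts 40.0 kb beyond the end of Rgs8 on chromosome 1, had 10.6 ± 0.38 RPKM in the cKO and 12.1 ± 0.35 RPKM in the controls (SD, n = 4 each) and a log2 fold change of -0.17 ± 0.05 (adjusted p = 0.0580). Its groups did not overlap, and it passed with either other scaling (adjusted p = 0.0461 and 0.0413). It also passed with log2(RPKM + 0.1) (adjusted p = 0.0326) and without cKO replicate 3 (adjusted p = 0.0475). Rgs2, the most abundant RGS gene here, was at 45.5 ± 4.47 RPKM in the cKO and 44.6 ± 2.57 RPKM in the controls, and Rgs3 and the near-absent Rgs13 did not pass either. The fall of Rgs4 was not shared by its neighbour Rgs5, a pericyte gene 45.7 kb away, whose log2 fold change was 0.14 ± 0.07 and did not pass (adjusted p = 0.352).

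The R7 subfamily acts as complexes with the beta subunit Gnb5 and is held at membranes by anchoring proteins. Rgs6 was at 4.10, 3.99, 4.54 and 3.31 RPKM in the cKO libraries, against 8.74, 7.01, 8.75 and 8.45 RPKM in the controls. All cKO values were below all control values (log2 fold change -1.04 ± 0.09, adjusted p = 3.42e-05). Rgs7bp, which encodes an anchor of R7 complexes, was at 3.51, 3.12, 2.89 and 2.94 RPKM in the cKO libraries and at 5.09, 4.05, 3.70 and 4.54 RPKM in the controls (log2 fold change -0.47 ± 0.09, adjusted p = 0.00943). The partner Gnb5 itself was at 12.9 ± 0.47 RPKM in the cKO and 12.8 ± 0.10 RPKM in the controls, with a log2 fold change of 0.01 (95% interval -0.08 to 0.11). Rgs7 did not pass (log2 fold change -0.15 ± 0.05, adjusted p = 0.136). Rgs11 had one of -0.49 ± 0.15 with overlapping groups (1.65, 1.73, 2.60 and 1.96 RPKM in the cKO libraries, 3.11, 2.86, 2.39 and 2.76 RPKM in the controls). It did not pass (adjusted p = 0.0723), but did so without cKO replicate 3 (adjusted p = 0.0134) and in the authors' deposited table (adjusted p = 0.0185). The remaining R7 gene, Rgs9, which the selection left out, was at 5.29 ± 0.49 RPKM in the cKO and 5.37 ± 0.33 RPKM in the controls (adjusted p = 0.932).

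In the other RGS subfamilies 2 genes fell. Rgs17, of the RZ subfamily that acts on Gz and other Gi/o-class subunits, was at 9.69, 8.01, 8.88 and 8.68 RPKM in the cKO libraries, against 11.2, 10.2, 11.4 and 11.5 RPKM in the controls. The groups were close but did not overlap (log2 fold change -0.32 ± 0.06, adjusted p = 0.00561). Rgs14, an R12 protein known from hippocampal area CA2 that also binds inactive Gi subunits, was scarce, with adjusted read values of 4, 8, 3 and 3 in the cKO libraries and 22, 12, 18 and 14 in the controls (log2 fold change -1.72 ± 0.33, adjusted p = 0.00842). Rgs10, an R12 gene known from microglia, spread widely within both groups, at 16.7, 28.7, 25.9 and 20.05 RPKM in the cKO libraries and 15.5, 22.3, 20.8 and 17.4 RPKM in the controls, and did not pass (log2 fold change 0.26 ± 0.17, adjusted p = 0.468), while 11 of 12 microglial markers rose. Rgs12, Rgs19 and Rgs20 did not pass. Without cKO replicate 4 and control replicate 3, the libraries lowest in pallial markers, Rgs17 and Rgs14 missed the threshold (adjusted p = 0.0656 and 0.0741).

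Among the listed G protein subunits, 1 gene of each of 3 families changed. This was 8.33% of alpha, 25% of the 4 beta and 11.1% of gamma subunit genes, against 6.66% of all genes tested. The alpha subunit gene Gnal, outside the selection, also fell and is described below. Of the 12 listed alpha subunit genes only Gnai1 passed, an inhibitory subunit of adenylyl cyclase. Gnai1 was at 36.0, 36.3, 35.0 and 33.1 RPKM in the cKO libraries, against 25.2, 26.6, 23.9 and 26.5 RPKM in the controls. All cKO libraries were higher, by a log2 fold change of 0.47 ± 0.04 (adjusted p = 6.01e-05). The related Gnai2 and Gnai3 had log2 fold changes of 0.04 (95% interval -0.04 to 0.12) and 0.00 (95% interval -0.07 to 0.08), and Gnao1, the Go subunit, of 0.01 (95% interval -0.06 to 0.09). Gnai2 was the most abundant alpha subunit transcript, at 174 ± 3.40 RPKM in the cKO and 170 ± 6.02 RPKM in the controls. Gnas, the stimulatory subunit, was at 145 ± 7.10 RPKM in the cKO and 148 ± 3.55 RPKM in the controls (log2 fold change -0.02, 95% interval -0.11 to 0.08), but its exons overlap antisense transcripts, and the sources used here do not say whether reads were counted by strand. Gnaq (65.5 ± 2.29 RPKM in the cKO, 63.3 ± 1.19 RPKM in the controls) and Gna12 (29.0 ± 0.36 RPKM in the cKO, 28.4 ± 1.29 RPKM in the controls) did not pass.

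Gna15, a Gq-class subunit known from blood-forming cells, was scarce, at adjusted read values of 12, 14, 19 and 13 in the cKO libraries and 8, 10, 2 and 8 in the controls. The groups did not overlap, yet it did not pass (log2 fold change 1.09 ± 0.39, adjusted p = 0.149), while the authors' deposited table has it at an adjusted p of 0.0287. It stands here beside the microglial and erythroid lists given above, and their part in it was not tested.

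The falling beta subunit was Gnb4, at 7.53, 8.57, 8.25 and 8.32 RPKM in the cKO libraries, against 11.99, 12.6, 11.4 and 11.6 RPKM in the controls. The groups lay far apart relative to their spread (log2 fold change -0.53 ± 0.05, adjusted p = 4.84e-05). The abundant Gnb1 (329 ± 1.89 RPKM in the cKO, 316 ± 6.002 RPKM in the controls) and Gnb2 (298 ± 13.2 RPKM in the cKO, 320 ± 5.36 RPKM in the controls) had log2 fold changes of 0.07 ± 0.03 and -0.10 ± 0.04 and did not pass. Among 9 gamma subunit genes, which form obligate dimers with beta subunits, Gng4 fell. It was at 10.7, 9.95, 11.7 and 11.1 RPKM in the cKO libraries and at 14.0, 16.5, 13.6 and 15.7 RPKM in the controls (log2 fold change -0.45 ± 0.07, adjusted p = 0.00248). Gng5 lay just beyond the threshold, at 19.6 ± 1.05 RPKM in the cKO and 23.4 ± 0.80 RPKM in the controls (adjusted p = 0.0501), and passed with either other scaling (adjusted p = 0.0404 and 0.0385). Gng2, the most abundant, had a log2 fold change of -0.07 (95% interval -0.18 to 0.03). The striatal subunit Gng7, outside the selection, fell too (log2 fold change -0.34 ± 0.06, adjusted p = 0.00344).

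**Figure D2:**
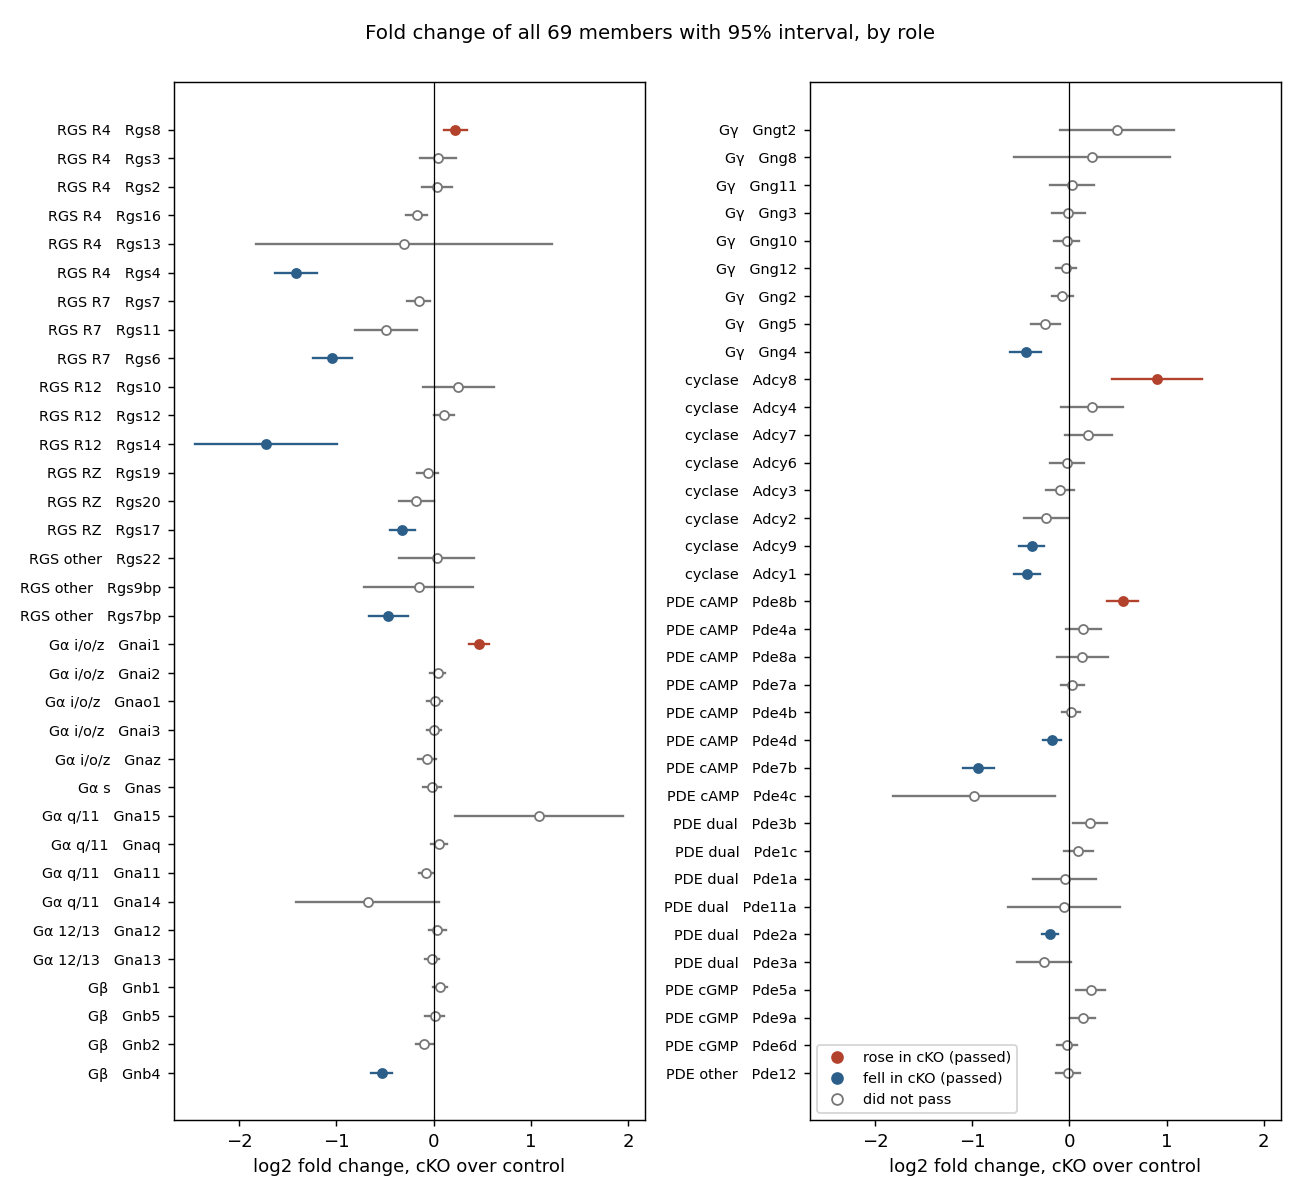
Log2 fold change (cKO over control) of the 69 genes, grouped by role, with the 95% interval of the limma fit; filled points passed at an adjusted p under 0.05. The 12 falls and 4 rises are spread over RGS, subunit, cyclase and phosphodiesterase genes, and abundant subunits such as Gnai2, Gnao1 and Gnas sit near 0 with narrow intervals.

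Of 8 adenylyl cyclase genes, 2 fell and 1 rose (37.5%, against 6.66% of all genes tested). Adcy1, a cyclase stimulated by calcium and calmodulin and the most abundant of the 8 in both groups, was at 18.5018, 16.05, 19.9 and 17.0 RPKM in the cKO libraries, against 25.0, 23.6, 22.6 and 25.7 RPKM in the controls. No cKO value reached the lowest control (log2 fold change -0.44 ± 0.06, adjusted p = 0.00101), and its share of the summed level of the 8 genes was 37.1% ± 2.07 in the cKO and 42.9% ± 1.10 in the controls (SD, n = 4 each). Adcy9, a widely expressed cyclase, was at 3.19, 2.94, 2.78 and 3.06 RPKM in the cKO libraries and at 4.17, 3.62, 4.07 and 3.91 RPKM in the controls (log2 fold change -0.39 ± 0.06, adjusted p = 0.00180). Adcy8, also a calcium-stimulated cyclase, was scarce and went the other way, at 0.426, 0.582, 0.459 and 0.771 RPKM in the cKO libraries and 0.259, 0.382, 0.285 and 0.248 RPKM in the controls. Its log2 fold change of 0.90 ± 0.21 (adjusted p = 0.0258) missed the threshold in 5 of 8 cases of a single dropped library (cKO replicate 2 or 4, or control replicate 1, 3 or 4), with adjusted p up to 0.0822. Adcy6 (log2 fold change -0.02, 95% interval -0.20 to 0.15), Adcy3, Adcy2, Adcy4 and Adcy7 did not pass. Adcy5, the main striatal cyclase of the adult and outside the selection, was at -0.08 ± 0.05 on the log2 fold change scale and did not pass (adjusted p = 0.362).

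Of 18 Pde-named genes, 3 fell and 1 rose (22.2%, against 6.66% of all genes tested). Pde6d and Pde12 share the name but encode a carrier of prenylated proteins and a nuclease, and neither passed. Pde7b, a cAMP-specific enzyme of high affinity that is abundant in striatum, was at 10.1, 8.37, 9.67 and 8.34 RPKM in the cKO libraries, against 18.0, 15.6, 18.1 and 18.6 RPKM in the controls. All cKO values lay well below the lowest control (log2 fold change -0.94 ± 0.07, adjusted p = 9.71e-06). Its close relative Pde7a, the most abundant cAMP-specific enzyme here, had a log2 fold change of 0.03 (95% interval -0.09 to 0.15). Pde8b, also cAMP-specific, was at 3.47, 3.73, 3.35 and 3.61 RPKM in the cKO libraries, against 2.47, 2.66, 2.17 and 2.45 RPKM in the controls. This rise (log2 fold change 0.55 ± 0.07, adjusted p = 0.000689) set it apart in direction from Pde7b, and Pde8a did not pass (log2 fold change 0.13 ± 0.12).

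The other changes of phosphodiesterases were small. Pde2a, which cGMP stimulates and which degrades both cyclic nucleotides, was at 36.0, 36.3, 36.2 and 34.6 RPKM in the cKO libraries and at 42.5, 38.6, 43.3 and 41.0 RPKM in the controls (log2 fold change -0.20 ± 0.04, adjusted p = 0.00822). A protein-coding model that GENCODE names Gm45837 shares 64.3% of the Pde2a exon bases on the same strand, so how reads were assigned between them is uncertain, and without cKO replicate 4 and control replicate 3 the adjusted p was 0.0760. Pde4d, a rolipram-sensitive cAMP phosphodiesterase, was at 11.7, 12.03, 12.1 and 11.9 RPKM in the cKO libraries and at 13.04, 14.3, 13.3 and 13.8 RPKM in the controls. The difference was small and regular (log2 fold change -0.18 ± 0.04, adjusted p = 0.0216), but it was lost without cKO replicate 2 or 4 or control replicate 2 or 4 (adjusted p up to 0.0783) and in the authors' deposited table (adjusted p = 0.115). Pde4a and Pde4b did not pass, nor did the cGMP-specific Pde5a (4.74 ± 0.40 RPKM in the cKO, 4.10 ± 0.30 RPKM in the controls, adjusted p = 0.0866) and Pde9a (adjusted p = 0.223). The striatal genes Pde10a and Pde1b, outside the selection, fell, with log2 fold changes of -0.37 ± 0.07 (adjusted p = 0.00909) and -0.37 ± 0.08 (adjusted p = 0.0151), the second missing the threshold without cKO replicate 4 and control replicate 3 (adjusted p = 0.0694).

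Of the 53 genes that did not pass, 23 had a 95% interval of the log2 fold change that lay within 0.2 of 0, and 16 of these 23 were G protein subunit genes. In 9 of the 53 the groups did not overlap, and over all 69 genes this held for 25, against 12.7% of all genes tested. At the other end, 15 of the 69 genes had a mean under 1 RPKM, where intervals were wide. Rgs13, listed at 0 in 1 library of each group, had a log2 fold change of -0.31 with an interval from -1.83 to 1.22, and Pde4c one of -0.98 with an interval from -1.82 to -0.15 (adjusted p = 0.181).

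**Figure D3:**
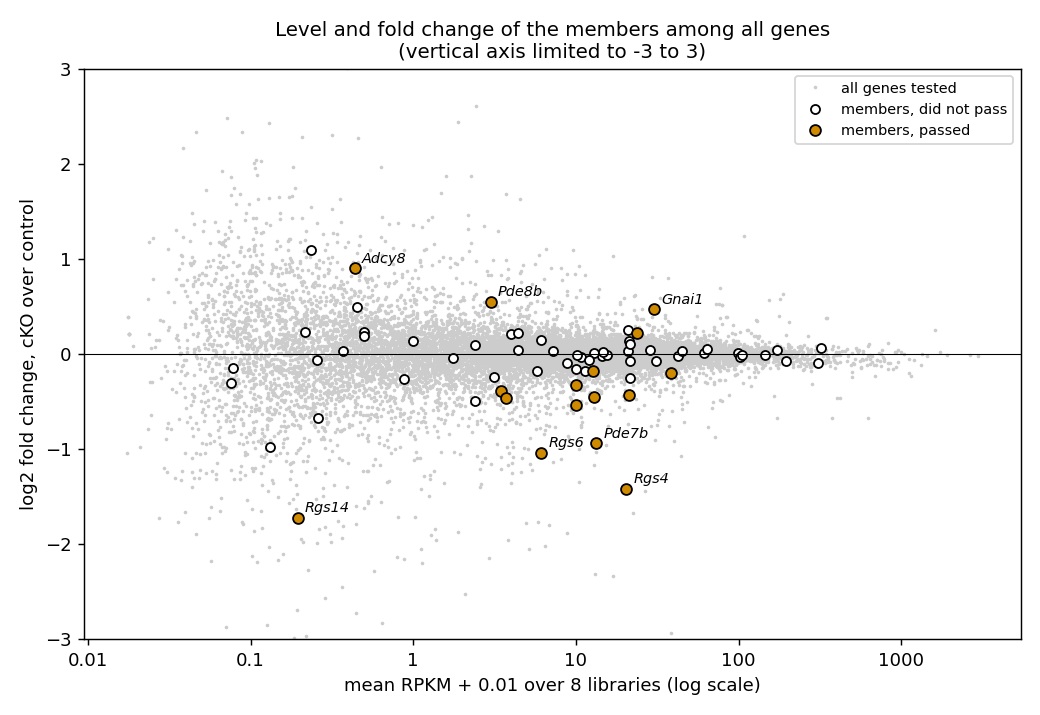
Mean RPKM plus 0.01 over the 8 libraries (log axis) against the log2 fold change (cKO over control) for all genes tested (grey), the 53 listed genes that did not pass (open) and the 16 that passed (filled). Rgs4, Rgs6 and Pde7b lie lowest among the listed genes above 1 RPKM, and the listed genes of highest level lie close to 0.

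Other genes of the pathway were described from 3 lists, chosen with earlier results of these data known, so their shares are descriptive only. The list of cyclic nucleotide effectors has 24 genes and includes an anchor, inhibitors and substrates of protein kinase A. On it 6 genes fell and 2 rose (33.3%, against 6.66% of all genes tested). Akap5, which anchors protein kinase A at synapses, was at 8.13, 7.99, 7.76 and 8.17 RPKM in the cKO libraries, against 14.3, 12.9, 13.7 and 13.4 RPKM in the controls (log2 fold change -0.75 ± 0.04, adjusted p = 7.02e-07). Prkar2b, the regulatory subunit RII beta of that kinase, fell to 68.97 ± 1.119 RPKM in the cKO, against 84.0 ± 1.68 RPKM in the controls (log2 fold change -0.28 ± 0.03, adjusted p = 0.000224). The more abundant regulatory subunit gene Prkar1a (159 ± 1.42 RPKM in the cKO, 147 ± 0.83 RPKM in the controls) rose by 0.13 ± 0.03 (adjusted p = 0.0309). Prkar1a passed in only 2 of 8 fits with 1 library dropped, and not in the authors' deposited table (adjusted p = 0.262). The kinase substrates Arpp21 and Ppp1r1b (DARPP-32) fell, with log2 fold changes of -1.17 ± 0.09 and -0.74 ± 0.11, and so did the cyclic nucleotide-gated pacemaker channel gene Hcn4, at -0.26 ± 0.05. Pkia, an inhibitor peptide of protein kinase A, rose by 0.17 ± 0.03 (adjusted p = 0.0106), but it missed the threshold when control replicate 4 was dropped (adjusted p = 0.0540) and in the authors' deposited table (adjusted p = 0.0797). The catalytic subunits Prkaca and Prkacb did not pass (log2 fold changes 0.00 and -0.09).

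Of the 8 tested guanylyl cyclase genes, 3 rose and none fell (37.5%, against 6.66% of all genes tested). The 3 encode subunits of the soluble cyclase that nitric oxide activates. Gucy1a3 was at 210, 204, 198 and 188 RPKM in the cKO libraries, against 156, 140, 163 and 154 RPKM in the controls (log2 fold change 0.39 ± 0.05, adjusted p = 0.000458). Gucy1b3 (102 ± 2.83 RPKM in the cKO, 88.3 ± 7.26 RPKM in the controls) and Gucy1a2 (5.43 ± 0.37 RPKM in the cKO, 4.69 ± 0.18 RPKM in the controls) rose by 0.21 ± 0.05 and 0.22 ± 0.05, with adjusted p of 0.0184 and 0.0249. These 2 calls were less firm: only Gucy1a3 of the list passed without control replicate 3, without control replicate 4 and in the authors' deposited table, where Gucy1b3 and Gucy1a2 have adjusted p of 0.0644 and 0.0652. Without cKO replicate 3 Gucy1b3 missed the threshold, and without cKO replicate 4 or control replicate 2 Gucy1a2 did.

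The list of G protein partners had 26 tested genes, and it includes Gnal, itself an alpha subunit gene, and the calmodulin regulator gene Pcp4. On this list 2 genes fell and 1 rose (11.5%, not far from the 6.66% of all genes tested). Grk5, a kinase of activated receptors, was at 5.13, 4.33, 4.93 and 4.97 RPKM in the cKO libraries, against 8.54, 7.42, 8.47 and 8.29 RPKM in the controls (log2 fold change -0.75 ± 0.07, adjusted p = 4.15e-05). Gnal, the Golf alpha subunit that takes the place of Gs in striatum, fell to 62.8 ± 4.98 RPKM in the cKO, against 78.4 ± 3.89 RPKM in the controls (log2 fold change -0.32 ± 0.05, adjusted p = 0.00341). Pcp4, a small calmodulin regulator, was at 136, 195, 208 and 194 RPKM in the cKO libraries and at 132, 136, 112 and 111 RPKM in the controls. Its cKO replicate 1 lay within the control range, and its rise (0.57 ± 0.12, adjusted p = 0.0142) missed the threshold when cKO replicate 2 or 4 was dropped (adjusted p = 0.0513 and 0.0518). The arrestins Arrb1 and Arrb2, the kinases Adrbk1, Grk3 and Grk6 and the chaperones Ric8a and Ric8b did not pass.

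Of the 16 calls, 10 held in each of the 19 other ways of processing that tested them: Rgs4, Pde7b, Rgs6, Gnb4, Gnai1, Pde8b, Adcy1, Adcy9, Gng4 and Rgs7bp. In the authors' deposited table, 16 of the 69 genes have an adjusted p under 0.05 (6.55% of all 15705 genes do), and 14 of them are among the 16 called here, all with the same sign. Pde4d and Rgs8 are called here alone, and Gna15 and Rgs11 in the deposited table alone. Without cKO replicate 4 and control replicate 3, 10 of the 69 genes passed, 8 lower and 2 higher in the cKO. With limma's mean trend off, Pde4d, Adcy8 and Rgs8 missed the threshold (adjusted p = 0.0652, 0.0651 and 0.107) and Gng5 passed it (adjusted p = 0.0344).

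**Figure D4:**
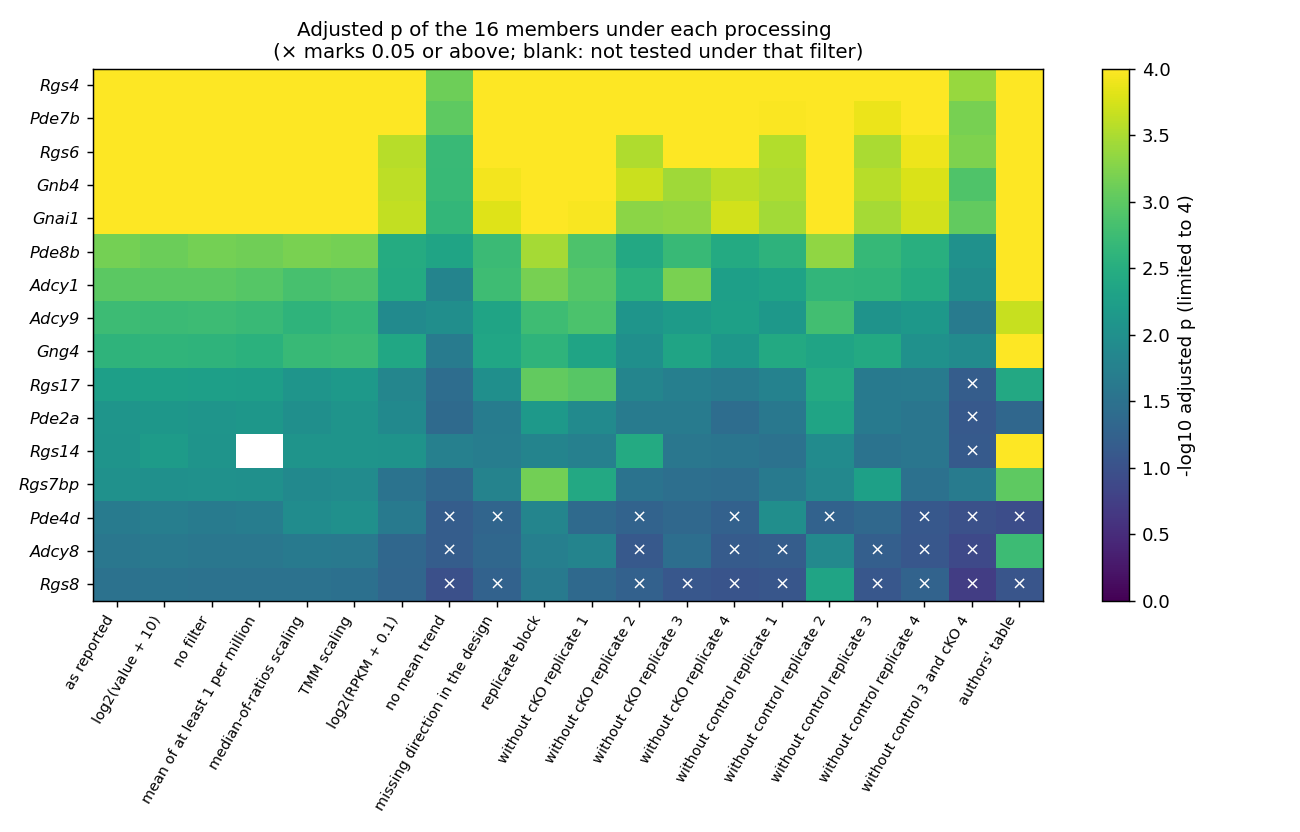
Adjusted p (as -log10, limited to 4) of the 16 genes, in rows, under the reported processing and 19 others, in columns; a cross marks 0.05 or above and the blank a filter that left Rgs14 out. Crosses collect in the rows of Pde4d, Adcy8 and Rgs8 and in the column without control replicate 3 and cKO replicate 4.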

How the data were processed

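The series measured polyadenylated RNA of single E18.5 LGE dissections in 4 cKO and 4 control libraries, with groups and replicate numbers from the sample titles. Per the labels' protocols, a strand-keeping kit was used and 1 end of each fragment was read. STAR, featureCounts, edgeR and build mm10 are named in the submitters' processing notes; the sources used here give no versions, counting options or strand setting. The columns the authors named raw hold a score, not read counts: upper quartiles lay between 1624 and 1635 in all libraries, and 1 direction of variation among the 8 libraries was almost absent from the 5711 genes with a mean above 1000 (scaled singular value 0.000241, against 0.0433 for the next). This trace of a removed factor is read from the values. It can make SDs, SEs and p-values too small. Depth is unknown, so values carry no counting interval. The authors' RPKM equals these values over library sum and gene length, as the deposited columns themselves show.

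The deposited adjusted values were taken as log2(value + 1) (pseudocount 1), genes reaching 1 in at least 4 libraries were tested (15698, with 7 left out), and limma 3.58.1 in R 4.3.3 (moderated test, mean trend) compared cKO with control, with Benjamini-Hochberg adjustment over all genes and a threshold of 0.05. The scale understates changes of low genes. Fold changes are cKO over control, ± SE; levels are RPKM, ± SD. The authors' deposited log2 fold changes and p-values served as an alternative; their column is named WT against KO, but its sign is that of cKO over control. The procedure was tested on simulated data. The members, pathway and marker lists were chosen with earlier results of these data known. Named were all members that passed, the most abundant member of each role, the largest uncalled change among members with a mean of at least 1 RPKM (Rgs11), the 6 left-out genes, and up to 6 called genes per pathway list. Gng5, Rgs16, Gna15, Pde5a, Rgs10, Rgs13, Pde4c and Prkar1a were named after their values were seen. Other genes that did not pass are named to show the rest of a family. Positions are from GENCODE M21 (GRCm38), which matched all 69 symbols, and no listed gene had values identical to another gene's. Same-numbered libraries do not come from a shared animal.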

Additional observations from a re-analysis of the deposited data

Results flagged for a closer look

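In groups of 4 libraries, a library far from the others was looked for in the 106 groups of the named genes, and chance marks about 1 in 20 groups. It was found in 4. Arpp21 was at 6.21 RPKM in cKO replicate 4, against 8.37 to 8.58 RPKM in the other cKO libraries. Pde2a was at 34.6 RPKM in cKO replicate 4, against 36.0 to 36.3 RPKM in the others. Rgs7 was at 8.60 RPKM in cKO replicate 4, against 9.69 to 9.83 RPKM in the others. Rgs16 was at 11.2 RPKM in cKO replicate 3, against 10.4 to 10.5 RPKM in the others.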

How the results depend on the processing

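None of the 16 members that passed changed direction in any alternative. Over all of them and the 19 alternatives, 275 of 303 values stayed past the threshold and 28 did not. The count of members that passed was 13 to 18 when 1 library was left out and 10 without control replicate 3 and cKO replicate 4. Over all genes it was 658 to 959 when 1 library was left out, with 658 without control replicate 4, and 608 without control replicate 3 and cKO replicate 4. With 1 library left out, the number of genes that passed was 5 to 9 for the effectors, 1 to 3 for the guanylyl cyclases and 2 to 3 for the G protein partners. Guanylyl cyclase calls came to 1 with log2(RPKM + 0.1), with no mean trend, without that pair of libraries and in the authors' table. Adding the missing direction to the design left 14 members and 749 genes, and limma without the mean trend left 14 members and 797 genes. The cause of these differences was not tested, apart from fewer samples where libraries were left out.

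Some values near 0 that did not pass changed sign. When 1 library was left out, the log2 fold change ran from -0.039 to 0.018 for Gnas, from -0.059 to 0.0081 for Pde6d, from -0.012 to 0.071 for Pde7a, from -0.010 to 0.088 for Rgs2 and from -0.074 to 0.026 for Rgs9.

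With the replicate number as a block, 18 members and 1199 genes passed, and Rgs10 passed (adjusted p = 0.0330). The deviations of same-numbered libraries correlated at 0.0576, 0.132, -0.0473 and -0.487. Those of cKO replicate 1 correlated at up to 0.618 with a control of another number. These values show no pairing by number, but they cannot exclude it, since a factor appears to have been removed before deposit. Low genes such as Rgs14 and Gna15 rest on few reads, and depth is unknown.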
